A study of Mus musculus with 8 samples.

Results

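Ogfrl1, B3gat2, Smap1, Fam135a and Col19a1 lie near one another on chromosome 1 of the mouse genome, with other genes between some of them. Each had a higher level in the retina of quadruple KO mice than in that of WT mice. These 5 genes were picked by name from the 18058 genes of the deposited table because they are neighbours that were all higher in the quadruple KO. The difference between the genotypes therefore defined the set, and it is described here without a test. The first of them begins at 23403467 and the last ends at 24627011 on chromosome 1 of GRCm39, a stretch of 1224 kb.

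RNA was sequenced from the retinae of adult mice, with 4 libraries of WT mice and 4 libraries of quadruple KO mice. The quadruple KO lacks the lectican proteoglycans brevican (Bcan) and neurocan (Ncan) and the tenascins C (Tnc) and R (Tnr), 4 proteins of the neural extracellular matrix. The line was made by crossing mice with single knockouts, while the WT animals belonged to an inbred strain from a commercial breeder. The loss of the 4 proteins and any other difference between the breeding lines cannot be told apart in this design. No age beyond adult and no treatment was given for either group.

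B3gat2 encodes a glucuronyltransferase of the nervous system. Together with its relative B3gat1 it adds the glucuronic acid on which the sulfotransferase Chst10 builds the HNK-1 epitope, a sulfated sugar found on neural adhesion molecules and on tenascin-R. The third relative, B3gat3, adds the same sugar in the linker that joins glycosaminoglycan chains to proteoglycan cores such as brevican and neurocan. Col19a1 encodes a collagen of the FACIT class, whose interrupted triple helices sit on the surface of collagen fibrils, and so does Col9a1 beside it. Smap1 encodes a GTPase-activating protein for Arf6 that acts in clathrin-dependent endocytosis. Ogfrl1 is named for its likeness to the opioid growth factor receptor Ogfr, and Fam135a is little characterised.

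The table held normalized counts, which were scaled by the submitters so that libraries of unequal depth can be compared. The labels of the libraries were checked on the targeted genes. Bcan had 258 ± 54.7 normalized counts in WT against 15.0 ± 4.79 in the quadruple KO, and Tnr had 5856 ± 340 and 2509 ± 95.1 (SD, n = 4 each). Ncan lay between 569 and 789 in WT and between 0 and 0.853 in the quadruple KO, whereas Tnc overlapped, with 1265 ± 330 and 1175 ± 104 (SD, n = 4 each). Thus 3 of the 4 targeted genes separated the genotypes and the mRNA level of Tnc did not. Tnr lies on chromosome 1 as well, 135 Mb from the stretch, and Bcan, Ncan and Tnc lie on chromosomes 3, 8 and 4.

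WT B and WT C stood apart in their mitochondrial mRNAs. These 13 mRNAs made up 0.402% and 0.341% of all normalized counts there and 1.28% to 1.64% elsewhere. Values against WT A and WT D alone are therefore given beside the log2 fold changes below. Of the retinal cell types checked, rod markers were the most abundant, with summed levels of 1170516 to 1585803 in WT and 1586340 to 1715436 in the quadruple KO. The 5 markers of retinal ganglion cells summed to 23913 to 26424 in WT and 19857 to 23414 in the quadruple KO, and the 3 of microglia to 131 to 217 and 221 to 256. None of the markers was called. These 3 sums did not overlap between the genotypes, by margins that were narrow beside their ranges, and the sums of the other cell types checked overlapped. Among single genes tested, 6.16% had all quadruple KO libraries above all WT libraries. The part of these cell types in the results below was not tested. In whole retina a change in the number of cells of a type and a change in RNA per cell cannot be told apart.

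Windows before a transcript start were available for 3 of the 5 members, Smap1, Fam135a and Col19a1. The 250 bases before each such start are shown because these genes differed between the genotypes in the same direction. They were taken from RefSeq on GRCm38.p6, an older build than that of the gene positions given here, and are written from 5′ to 3′ on the strand of the gene. Capitals mark the GC box, GGGCGG on either strand. The windows are chr1:23922382-23922631, chr1:24100342-24100591 and chr1:24587438-24587687, all on the minus strand. That of Smap1 ends at the outermost annotated start of the gene, and those of Fam135a and Col19a1 lie before starts 143 and 485 bases inside it.
Smap1: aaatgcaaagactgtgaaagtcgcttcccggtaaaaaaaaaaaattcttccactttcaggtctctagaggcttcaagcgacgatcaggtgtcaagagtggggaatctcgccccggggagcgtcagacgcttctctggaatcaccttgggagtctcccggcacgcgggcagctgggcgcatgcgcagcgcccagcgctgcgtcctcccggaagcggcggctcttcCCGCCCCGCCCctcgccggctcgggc
Fam135a: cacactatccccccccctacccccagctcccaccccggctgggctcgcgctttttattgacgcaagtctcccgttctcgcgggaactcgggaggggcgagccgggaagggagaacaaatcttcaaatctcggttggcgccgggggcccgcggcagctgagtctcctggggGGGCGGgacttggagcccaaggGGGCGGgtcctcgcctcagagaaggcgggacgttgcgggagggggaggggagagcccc
Col19a1: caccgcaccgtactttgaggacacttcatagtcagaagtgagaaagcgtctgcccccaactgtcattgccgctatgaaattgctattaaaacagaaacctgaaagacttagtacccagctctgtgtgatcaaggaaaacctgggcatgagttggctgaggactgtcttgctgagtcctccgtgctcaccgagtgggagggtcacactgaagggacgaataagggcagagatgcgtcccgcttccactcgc
The windows of Smap1 and Fam135a each held 2 GC boxes, and that of Col19a1 held none. A second Smap1 start, 12645 bases inside the gene, had a window with 0 GC boxes and is not shown. In Smap1 they began 26 and 21 bases before the start and shared 1 base, and in Fam135a 80 and 58 bases before it. A GC box was present in 32.7% of the 32851 windows of this length in the table. The CCAAT box (CCAAT), the TATA box (TATAAA), a site for CRX and OTX factors (TAATCC) and the E-box (CACGTG), searched on both strands, were in none of the 3 printed windows and in 33.8%, 12.4%, 6.25% and 6.02% of all. GC content was 62.0% for Smap1, 69.2% for Fam135a and 52.0% for Col19a1, compared with a median of 52.4% over all windows. None of the motifs searched was thus in all 3 printed windows, which were not otherwise compared. A match or its absence says nothing on which factor binds there.

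Ogfrl1 (ENSMUSG00000026158.12, 23403467 to 23436853, minus strand) was the most abundant member by normalized count. It had 4859 normalized counts in WT A, 3085 in WT B, 2714 in WT C and 4682 in WT D, and 9244, 9778, 10370 and 9476 in quadruple KO A to D. All 4 quadruple KO libraries lay above all 4 WT libraries, and WT B and WT C were the lowest of all. The log2 fold change was 1.39 with a standard error of 0.18, and 1.03 with a standard error of 0.05 against WT A and WT D alone.

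B3gat2 (ENSMUSG00000026156.9, 23800834 to 23888239, plus strand), the HNK-1 glucuronyltransferase, had 663, 591, 584 and 665 normalized counts in WT A to D. In quadruple KO A to D it had 1066, 1118, 1096 and 1106. The quadruple KO libraries agreed within a coefficient of variation of 2.03%, and none came near the highest WT library. This gave a log2 fold change of 0.81 with a standard error of 0.08, and 0.72 with a standard error of 0.06 against WT A and WT D.

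Smap1 (ENSMUSG00000026155.14, 23882260 to 23961555, minus strand), the Arf6 GTPase-activating protein, had 2323, 1987, 1921 and 2277 normalized counts in WT A to D. It had 4838, 4529, 4701 and 4704 in quadruple KO A to D. The lowest quadruple KO library was above the highest WT library. On the log2 scale the fold change was 1.15 with a standard error of 0.08, and 1.03 with a standard error of 0.05 against WT A and WT D. Smap1 and B3gat2 run toward each other and their annotated ends overlap by 5980 bases, of which 2175 are exonic in both. Whether strand was used in counting was not given in the sources used here, so reads in these 2175 bases could have been assigned to either gene.

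Fam135a (ENSMUSG00000026153.16, 24049820 to 24139592, minus strand) had 2029, 1426, 1441 and 2077 normalized counts in WT A to D and 4380, 4352, 4327 and 4222 in quadruple KO A to D. The quadruple KO libraries varied by 1.60% and the WT libraries by 20.5% (coefficient of variation), with WT B and WT C again the lowest. Its log2 fold change was 1.33 with a standard error of 0.13, and 1.07 with a standard error of 0.04 against WT A and WT D.

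Col19a1 (ENSMUSG00000026141.14, 24296772 to 24627011, minus strand), the FACIT collagen, had the lowest counts of the 5. It had 364, 460, 420 and 425 normalized counts in WT A to D and 775, 647, 715 and 792 in quadruple KO A to D. Here WT A, not WT B or WT C, was the lowest library, and the genotypes did not overlap. The log2 fold change was 0.81 with a standard error of 0.10, and 0.89 with a standard error of 0.10 against WT A and WT D.

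**Figure D1:**
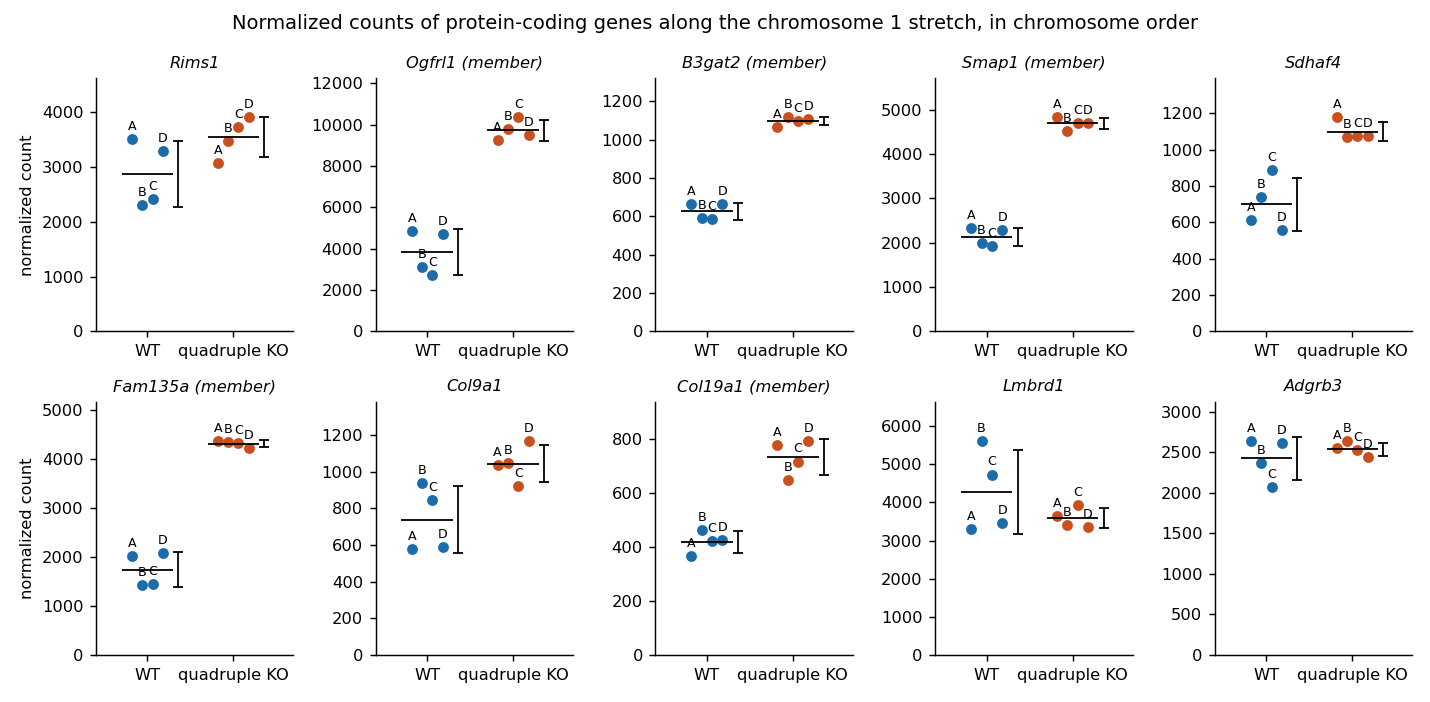
Normalized count (vertical axes, starting at 0) of the 10 protein-coding genes from Rims1 to Adgrb3 in chromosome order, in WT (blue) and quadruple KO (orange) libraries A to D. Lines mark the mean and bars the SD (n = 4 each), and in the 5 members and Sdhaf4 every quadruple KO library lies above every WT library.

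Per kilobase of annotated exon, a scale on which genes can be set against each other, Smap1 and Ogfrl1 were the highest in WT, with 364 ± 34.6 and 359 ± 102 normalized counts per kb (SD, n = 4 each). They did not differ beyond their spread. Fam135a followed with 195 ± 40.0, B3gat2 with 101 ± 7.16 and Col19a1 with 32.7 ± 3.12 (SD, n = 4 each). In the quadruple KO the order was Ogfrl1 with 909 ± 45.6, Smap1 with 803 ± 21.6, Fam135a with 483 ± 7.72, B3gat2 with 177 ± 3.58 and Col19a1 with 57.4 ± 5.14 normalized counts per kb (SD, n = 4 each). The collagen was thus the least abundant member in both genotypes. Which transcripts of each gene were made was not examined, so the exon length is an upper limit.

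With limma over the 17636 genes tested (adjusted p under 0.05), 77 genes or 0.437% were called, of which 46 or 0.261% were higher in the quadruple KO. The 5 members are among the 46, as their selection required, and nothing is read from that count. Against WT A and WT D alone 0.312% of genes were called higher, and the 5 members were among them. All quadruple KO libraries were above all WT libraries in 6.16% of the genes tested. The median log2 fold change of all genes tested was 0.00, and 0.01 against WT A and WT D.

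The size of the rise differed along the stretch, and its order moved with the choice of WT libraries. With all 4 WT libraries the log2 fold changes of the members ran from 0.81 to 1.39 with a median of 1.15, and from the lower coordinate to the higher they read 1.39, 0.81, 1.15, 1.33 and 0.81. Against WT A and WT D they ran from 0.72 to 1.07 with a median of 1.03, in the order 1.03, 0.72, 1.03, 1.07 and 0.89. As a ratio of means these are 2.04 for Ogfrl1, 1.65 for B3gat2, 2.04 for Smap1, 2.10 for Fam135a and 1.85 for Col19a1. There was no steady gradient from one end to the other under either choice. Ogfrl1 and Fam135a had the largest log2 fold changes with 4 WT libraries and were also the members with the lowest WT B and WT C, where their mean was 0.608 and 0.698 of that in WT A and WT D. This ratio was 0.884 for B3gat2, 0.850 for Smap1 and 1.11 for Col19a1.

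**Figure D2:**
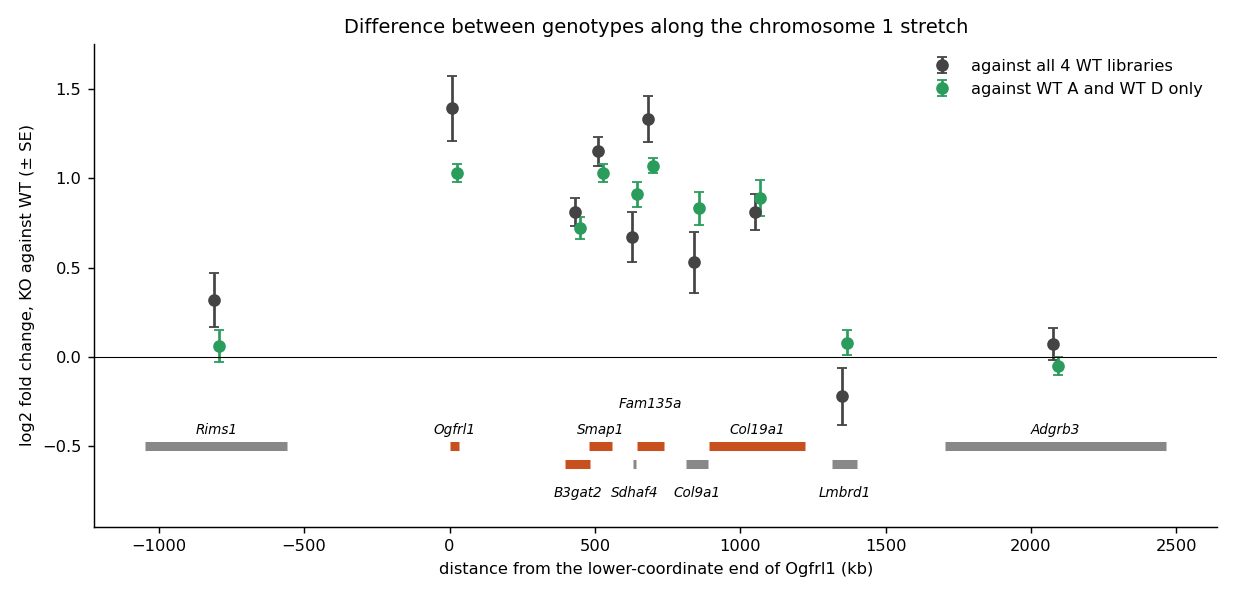
Log2 fold change between quadruple KO and WT (vertical axis, ± SE) against the distance of each gene's midpoint from the lower-coordinate end of Ogfrl1 in kb, with all 4 WT libraries (grey) and with WT A and WT D only (green). Bars below show the spans of the genes, members in orange, and with WT A and WT D the 7 genes from Ogfrl1 to Col19a1 lie between 0.72 and 1.07 while Rims1, Lmbrd1 and Adgrb3 lie between -0.05 and 0.08.

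Within a library, the ratio of one gene to another does not depend on how the library was scaled. The log2 ratio of B3gat2 to Smap1, the overlapping pair, was -1.81 to -1.72 in WT and -2.18 to -2.02 in the quadruple KO. The ranges did not overlap, the log2 fold change of B3gat2 was smaller than that of Smap1 by 0.34 (-0.34 with a standard error of 0.04 over libraries), and against WT A and WT D the difference was -0.31. B3gat2 thus rose less than its neighbour under both choices of WT libraries. Ogfrl1 to Smap1 gave 1.06 and 1.04 in WT A and WT D, 0.63 and 0.50 in WT B and WT C, and 0.93 to 1.14 in the quadruple KO, so that the quadruple KO matched the first pair and not the second. Fam135a to Smap1 gave -0.20 and -0.13 in WT A and WT D, -0.48 and -0.41 in WT B and WT C, and -0.16 to -0.06 in the quadruple KO. Col19a1 to Smap1 was -2.67 to -2.11 in WT and -2.81 to -2.57 in the quadruple KO, and these ranges overlapped.

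**Figure D3:**
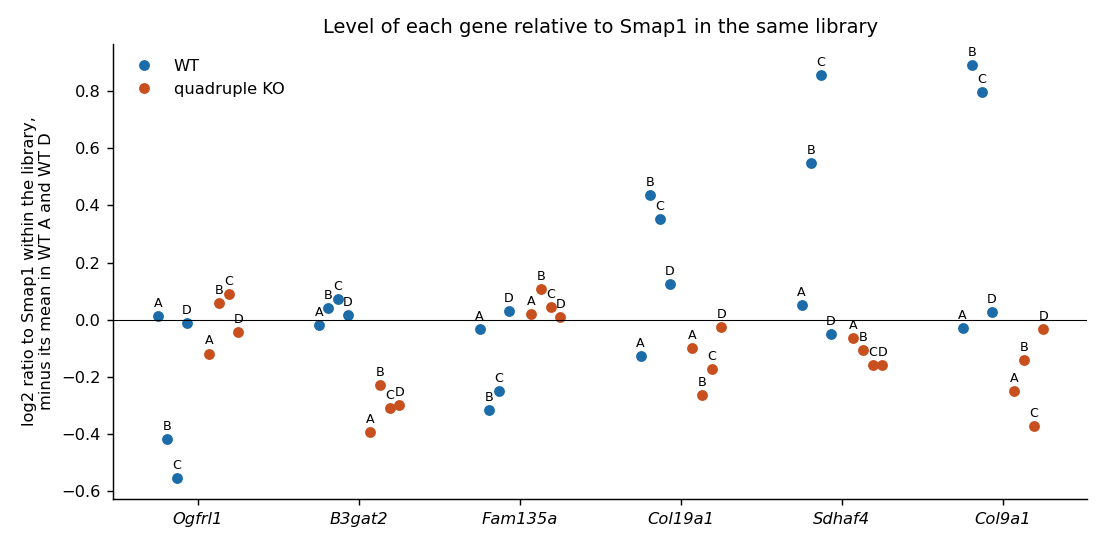
Log2 ratio of each gene to Smap1 within a library, minus the mean of that ratio in WT A and WT D (vertical axis), for 4 members and for Sdhaf4 and Col9a1, with letters marking libraries. B3gat2 and, by narrow margins, Sdhaf4 and Col9a1 lie lower in all quadruple KO libraries than in all WT libraries. For each gene other than B3gat2, WT B and WT C are the libraries farthest from 0.

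Of 21 annotated genes that overlap the stretch, 8 were in the table, and 7 of these are protein-coding. The 2 protein-coding genes that are no members, Sdhaf4 and Col9a1, stood between the members and were not called with all 4 WT libraries. Sdhaf4, an assembly factor of succinate dehydrogenase that lies 5061 bases from Fam135a, had 612, 740, 886 and 560 normalized counts in WT A to D and 1180, 1071, 1073 and 1073 in quadruple KO A to D. Its libraries did not overlap between the genotypes (exact two-sided permutation p = 0.0286, the smallest that 4 against 4 libraries allow). The log2 fold change was 0.67 with a standard error of 0.14 (limma adjusted p = 0.14). Against WT A and WT D it was 0.91 with a standard error of 0.07, and Sdhaf4 was called (limma adjusted p = 2.1e-04).

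Col9a1, the FACIT collagen whose 3′ end is 5006 bases from that of Col19a1, had 578, 937, 846 and 590 normalized counts in WT A to D. In quadruple KO A to D it had 1035, 1044, 922 and 1168, so that WT B lay inside the range of the quadruple KO (exact two-sided permutation p = 0.0571). The log2 fold change was 0.53 with a standard error of 0.17 (limma adjusted p = 0.30). Against WT A and WT D it was 0.83 with a standard error of 0.09, and Col9a1 was called (limma adjusted p = 0.0026). Sdhaf4 and Col9a1 were higher in WT B and WT C than in WT A and WT D, the opposite of Ogfrl1 and Fam135a. Leaving WT B and WT C out therefore enlarged both differences. The calls of Sdhaf4 and Col9a1 against WT A and WT D rest on these libraries alone, a choice made with earlier results known. Without WT C alone Sdhaf4 was called too (log2 fold change 0.79, limma adjusted p = 0.018).

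Gm37580, a gene of unverified type that starts 113 bases from Fam135a on the other strand, was low, with 4.50 to 13.5 normalized counts in WT against 13.9 to 21.4 in the quadruple KO. Its log2 fold change was 1.08 (limma adjusted p = 0.30), and 0.73 against WT A and WT D. The annotations of Gm37580 and Fam135a share no base. As strand use was not given, any reads of Fam135a beyond its annotated start could not be told apart from those of Gm37580.

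Outside the stretch the protein-coding genes on either side were not called. In a window reaching 2 Mb beyond the members, 32 other genes were tested, 3 inside the stretch and 29 outside it, of which 4 are protein-coding. Limma called 0 of the 29 in either direction, and at an unadjusted p under 0.05 4 were higher and 1 lower. Of all genes tested, 0.437% were called, and 9.29% were higher and 7.28% lower at that unadjusted threshold. Rims1, which encodes a scaffold of the presynaptic active zone and ends 557780 bases before Ogfrl1, had 2304 to 3506 normalized counts in WT against 3069 to 3916 in the quadruple KO. Its log2 fold change was 0.32 (95% interval -0.01 to 0.65, limma adjusted p = 0.30), and 0.06 against WT A and WT D. The genotypes overlapped.

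Lmbrd1, a lysosomal membrane protein of cobalamin export, begins 90598 bases beyond Col19a1 and had 3299 to 5620 normalized counts in WT against 3364 to 3945 in the quadruple KO. Its log2 fold change was -0.22 (95% interval -0.59 to 0.14, limma adjusted p = 0.42), and 0.08 against WT A and WT D. Adgrb3, an adhesion receptor of synapses, had 2076 to 2645 and 2446 to 2641 normalized counts, with a log2 fold change of 0.07 (95% interval -0.12 to 0.27, limma adjusted p = 0.62), and -0.05 against WT A and WT D. For Rims1, Lmbrd1 and Adgrb3 alike the interval lies below the log2 fold change of every member with all 4 WT libraries. This comparison leaves out the standard errors of the members, which were chosen for being higher, so it is a description and no test. Kcnq5, a potassium channel 1371 kb before Ogfrl1, was low, with 19.3 to 42.4 normalized counts in WT against 37.2 to 68.2 in the quadruple KO (log2 fold change 0.89, limma adjusted p = 0.30, and 0.62 against WT A and WT D). Its interval of 0.26 to 1.51 holds the values of all the members, so the counts at Kcnq5 cannot separate it from them. The 16 non-coding genes inside the span of Adgrb3 had log2 fold changes between -0.12 and 0.90, and between -0.84 and -0.01 against WT A and WT D, with none called.

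The 7 pseudogenes right after Col19a1 followed another pattern. They form a run of 4663 bases that matched the mitochondrial genome at 99.9% identity over 4654 bases, so that mitochondrial reads and reads of the run are nearly alike in sequence. Their summed normalized counts were 130130 in WT A, 57450 in WT B, 52809 in WT C and 174935 in WT D, and 152919, 173252, 164084 and 161341 in quadruple KO A to D. WT B and WT C were the lowest here, as they were for the summed mitochondrial mRNAs (169736 and 138719, while the remaining 6 libraries had 468499 to 600934). This holds for the sum and not for each gene. Gm28439 went the other way, with 2881 and 3265 in WT B and WT C and 1694 and 498 in WT A and WT D. The other genes of the run had lower means in WT B and WT C. The 7 genes ranged between log2 fold changes of -1.33 and 3.67 and none was called. Their values are reported as uncertain.

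**Figure D4:**
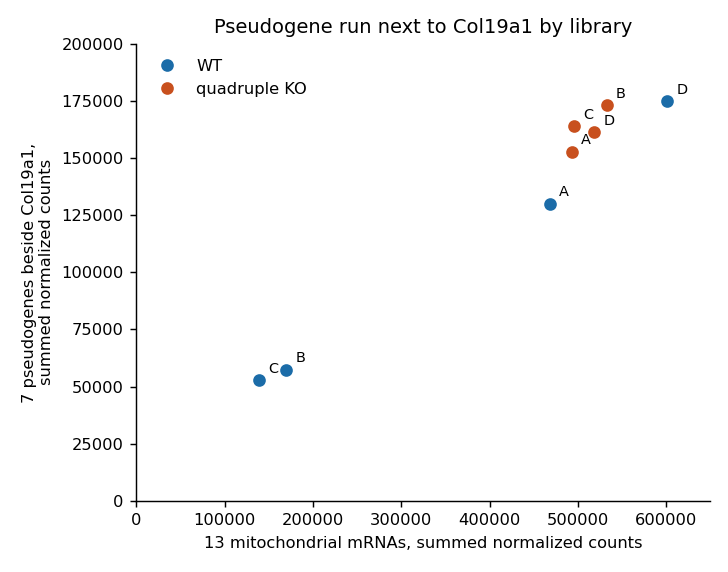
Summed normalized counts of the 7 pseudogenes beside Col19a1 (vertical axis) against the 13 mitochondrial mRNAs (horizontal axis) in each library, WT in blue and quadruple KO in orange. WT B and WT C lie low on both axes, and the other 6 libraries lie together.

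The relatives of the members elsewhere in the genome were not called. Of the 6 closest paralogs none was called with all 4 WT libraries, with a median log2 fold change of 0.07 (0.04 against WT A and WT D). Only Col9a1, inside the stretch, was called against WT A and WT D. With 0.437% of all genes tested called with all 4 WT libraries, the absence of calls among 6 genes says little about them. B3gat1, the other HNK-1 glucuronyltransferase, had 2650 to 3003 normalized counts in WT against 2466 to 2712 in the quadruple KO (log2 fold change -0.10, 95% interval -0.26 to 0.05, and -0.04 against WT A and WT D). Smap2 had 1538 to 1710 and 1545 to 1713 (log2 fold change 0.00, 95% interval -0.15 to 0.16, and 0.06 against WT A and WT D). The levels of both overlapped between the genotypes. B3gat3, the linker glucuronyltransferase, had 1739 to 2738 and 1675 to 1776 (log2 fold change -0.32, limma adjusted p = 0.30), and -0.06 against WT A and WT D. Ogfr had 734 to 1037 and 1060 to 1145 (log2 fold change 0.31, limma adjusted p = 0.30, and 0.19 against WT A and WT D). Its quadruple KO libraries all lay above its WT libraries, as in 6.16% of all genes tested. Fam135b had 2113 to 2732 and 2270 to 2843 (log2 fold change 0.14, and 0.03 against WT A and WT D).

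None of the listed genes of HNK-1 or linker synthesis was called either. As 0.437% of all genes tested were called, 0 calls in lists this short says little about them. Of the 4 genes listed for HNK-1 synthesis all were tested and limma called 0 (0 also at an unadjusted p under 0.05), with a median log2 fold change of -0.04, and 0.05 against WT A and WT D. B4galt1, a galactosyltransferase that makes the acceptor sugar, had 1395 to 1540 normalized counts in WT against 1474 to 1701 in the quadruple KO (log2 fold change 0.15, limma adjusted p = 0.31, and 0.20 against WT A and WT D). Chst10, the HNK-1 sulfotransferase, had 1010 to 1306 and 926 to 1050 (log2 fold change -0.18, limma adjusted p = 0.33, and -0.03 against WT A and WT D). Neither separated the genotypes. Of 9 tested genes of the glycosaminoglycan linker limma called 0, with a median of -0.17, and 0.06 against WT A and WT D. At an unadjusted p under 0.05 the linker had 1 higher and 1 lower, beside 9.29% and 7.28% of all genes. Its 2 smallest p-values were those of B3gat3 and of Fam20b, the xylose kinase of the linker, which had 2003 to 2299 normalized counts in WT against 2383 to 2518 in the quadruple KO (log2 fold change 0.18, limma adjusted p = 0.30, and 0.10 against WT A and WT D). Of the 6 tested carriers of HNK-1, Tnr, one of the targeted genes, was called as lower (log2 fold change -1.22, limma adjusted p = 1.7e-05, and -1.24 against WT A and WT D).

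Among the FACIT collagens other than Col19a1, 8 were tested, and limma called 0 with all 4 WT libraries, beside 0.437% of all genes. At an unadjusted p under 0.05, 2 were higher and 3 lower, a threshold that 9.29% and 7.28% of all genes passed. Their median log2 fold change was -0.34, and -0.10 against WT A and WT D. Col9a3, which joins Col9a1 and Col9a2 in collagen IX, had 225 and 260 normalized counts in WT D and WT A, 950 and 1159 in WT C and WT B, and 136 to 191 in the quadruple KO (log2 fold change -1.72, limma adjusted p = 0.30, and -0.67 against WT A and WT D). The chains of collagen IX thus had log2 fold changes of opposite sign, as Col9a2 had -0.67 and, against WT A and WT D, -0.14. Neither Col9a2 nor Col9a3 was called in either comparison. Among 32 tested genes of Arf GTPase-activating proteins other than Smap1, Arf6 and its exchange factors and clathrin coats, limma called 0. With 0.437% of all genes called, this count says little about the list. At an unadjusted p under 0.05, 2 were higher and 4 lower, beside 9.29% and 7.28% of all genes. The median was -0.08 (0.00 against WT A and WT D). The smallest p-values belonged to Arap3, with 41.2 to 97.3 normalized counts in WT against 22.4 to 53.8 in the quadruple KO (log2 fold change -1.11, and -1.19 against WT A and WT D), and to Agfg2, with 388 to 794 and 328 to 375 (log2 fold change -0.63, and -0.22 against WT A and WT D). The limma adjusted p was 0.30 for both.

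**Figure D5:**
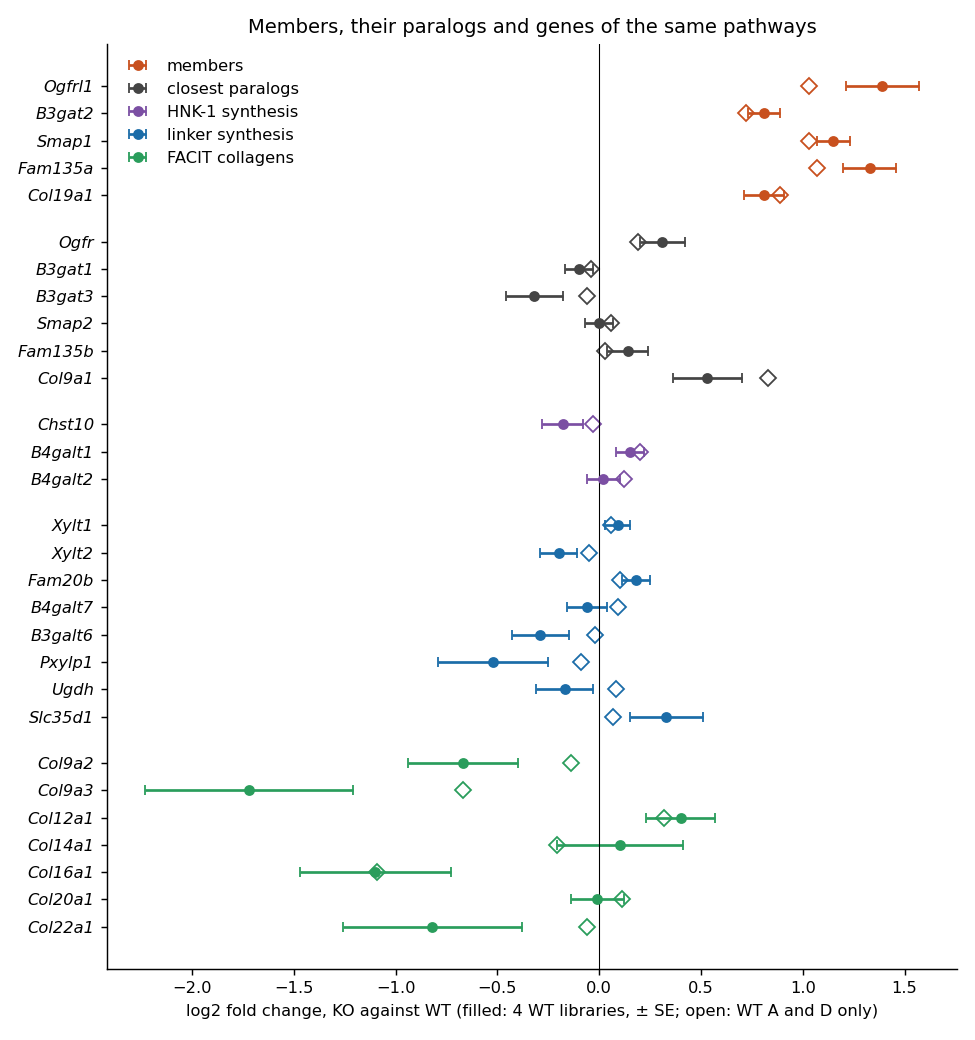
Log2 fold change between quadruple KO and WT (horizontal axis) of the 5 members, their paralogs and genes of the same pathways, with all 4 WT libraries (filled, ± SE) and against WT A and WT D (open diamonds). The members lie between 0.81 and 1.39, and apart from Col9a1 the paralogs lie between -0.32 and 0.31.

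The genes elsewhere whose levels ran most alike with the mean of the members' centred log2 values over the 8 libraries were Zfp973 (Pearson r = 0.996), Gm14296 (0.991) and Gm2026 (0.991) on chromosome 2, Amd2 (0.993) on chromosome 10 and Gm16439 (0.992) on chromosome 14. The libraries fall into the 2 genotypes, which any gene that separates them shares, so r is a description of that separation. Amd2, an S-adenosylmethionine decarboxylase gene, had 397 to 573 normalized counts in WT against 1235 to 1559 in the quadruple KO. Zfp973, a zinc finger gene, had 0 to 2.96 and 154 to 320. Their differences were thus far from uniform in size. Within the stretch r was 0.984 for Ogfrl1, 0.997 for B3gat2, 0.998 for Smap1, 0.995 for Fam135a and 0.926 for Col19a1, each of which is part of that mean, and 0.772 for Sdhaf4 and 0.621 for Col9a1.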

How the data were processed

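Retinal total RNA of 4 WT and 4 quadruple KO libraries was sequenced from 450 ng per library with a directional kit. Per the labels, the tools were Trim Galore (0.6.7) for trimming, STAR (2.7.9a) for alignment to GRCm39 and Salmon (1.5.2) for quantification. The authors deposited normalized counts from DESeq2 1.32.0, each count divided by the size factor of its library, as other values than raw counts. Fold changes and p-values of the authors' own comparison in the table were not used. Normalized counts summed to 36134196 to 42201667 per library. Raw depth is unknown: only 21.5% to 56.5% of low values lay within 0.1 of a whole step, so reads could not be recovered and no count model was fitted.

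Genes with a mean of at least 10 (17636) were fitted on log2(normalized count + 1) with limma 3.58.1 in R 4.3.3 (genotype alone, trended prior, Benjamini-Hochberg over all genes tested, called at 0.05). Fold changes on this scale are understated for low genes. Standard errors and 95% intervals come from that fit, and single genes had an exact two-sided permutation test over libraries. The fit had been tried beforehand on simulated data whose spread came from the quadruple KO libraries alone. That simulation did not include WT B and WT C standing apart, so it does not cover this feature of the data. The members and the lists were chosen with earlier results of these data known, and so was the comparison with WT A and WT D. Named were the members, the protein-coding genes tested within 2 Mb, the closest paralogs, the called genes of each list or the 2 with the smallest p, the 5 genes most correlated with the members, and the targeted genes. Positions are from GENCODE vM39 (17969 of 18058 identifiers matched). The pseudogene run was aligned with blastn 2.17.0. Quantile and median ratio scaling, filters, pseudocounts, priors, array weights, a replicate block and leaving out each library were tried as alternatives.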

Additional observations from a re-analysis of the deposited data

Results flagged for a closer look

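In a group of 4 libraries a value was singled out when its gap to the nearest of the others was a larger share of the group's range than Dixon's 95% value for 4 samples allows. Over 31 named genes, 62 groups were examined and 2 such values were found, fewer than the 1 in 20 that chance gives. Sdhaf4 had 1180 normalized counts in quadruple KO A, while the other quadruple KO libraries had 1071, 1073 and 1073. The lowest of these was still above the highest WT library. Arap3 had 53.8 in quadruple KO D, compared with 22.4, 23.8 and 26.1 in the other 3, and this library alone brought the genotypes to overlap with WT. None of the 5 members had such a library in either genotype.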

How the results depend on the processing

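All 5 members were higher in the quadruple KO under each of the 19 alternatives, with the median of their log2 fold changes between 1.03 and 1.19. The members were chosen for being higher, and all their quadruple KO libraries lay above all their WT libraries. Their direction under the alternatives is therefore no test, and only the size is described. The member with the largest log2 fold change was Fam135a in place of Ogfrl1 with WT A and WT D only, with array weights and without WT C. The number of genes called was 143 with array weights and 51 with the replicate block, compared with 77, and 56 to 89 when a library was left out. The other genes called in the window numbered 2 with WT A and WT D only and 2 with array weights (Sdhaf4 and Col9a1 both times), and 0 to 1 when a library was left out. FACIT collagens called and closest paralogs called were 1 each (Col9a1) in the same 2 fits. The cause was not tested. Signs that turned belong to genes that were not called: Lmbrd1 was 0.08 with WT A and WT D and 0.05 with array weights, Adgrb3 was -0.05 and -0.03 there and 0.00 (without WT C) to 0.12 when a library was left out, and Smap2 was 0.00 with median ratio scaling and -0.02 to 0.03 when a library was left out. In the replicate block, which pairs libraries by letter, 3 of the 5 members were called (B3gat2, Smap1 and Fam135a, not Ogfrl1 or Col19a1). Nothing is read from that count, as the members were chosen for being higher. Of the 17636 genes tested, 51 were called in that fit. In this balanced design the block cannot move the log2 fold changes themselves. Deviations from the group means correlated at -0.01, -0.11, 0.10 and 0.05 for A to D, so the letters were not taken as pairs. DESeq2 was not run, as the values are not whole counts. A window of 1 Mb or 5 Mb gave 0 calls as well.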
